A study of Bos taurus with 6 samples.

Results

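CHI3L2, a gene for a secreted chitinase-like protein, is described here in bovine (Bos taurus) blastocysts. It is 1 row of a count table of 12826 genes, chosen by its counts in the 6 libraries, which differed between embryos cultured with the ketone body beta-hydroxybutyrate (BHB) and untreated embryos. Its own values between these groups are therefore a description, with no test. The study sequenced the polyadenylated RNA of 3 libraries of BHB-treated and 3 libraries of control blastocysts, all at day 7 and all produced in vitro from slaughterhouse material. Embryos were pooled for each library, so a level is an average over embryos and over the lineages within them. Not given in the sources used here are the dose and duration of BHB, the pool size and the breed. Whether the pools are separate rounds of embryo production is likewise unknown, so p-values reflect only the spread among these libraries. The libraries are also read as 3 pairs of 1 BHB and 1 control library. The pairing comes from the authors' own model of these counts and not from the labels.

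Chitinases are enzymes that cleave chitin, a polymer of the sugar N-acetylglucosamine that mammals do not make. CHI3L2, known in humans as YKL-39, has the fold of these enzymes but lacks chitinase activity, and is secreted. It was first described in human cartilage cells, and in humans it is also a product of macrophages stimulated towards an alternative, tissue-repair state. Rodents have no direct counterpart of the gene.

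The libraries held between 6440732 and 8176648 counts, and 12732 genes had enough counts to be tested. Markers of the blastocyst were present in both groups. KRT18, a keratin of the outer trophectoderm, averaged 2730 ± 574 CPM (counts scaled to a common library total, with TMM factors) in BHB and 3570 ± 857 CPM in control libraries (SD, n = 3 each). POU5F1, a pluripotency factor, averaged 290.0 ± 29.2 CPM in BHB and 292 ± 15.6 CPM in control libraries (SD, n = 3 each).

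CHI3L2 was a low-level transcript that was higher in every BHB library than in every control library. It had 79, 83 and 132 counts in BHB libraries 1, 2 and 3, against 6, 22 and 24 counts in control libraries 1, 2 and 3. On the CPM scale these were 10.6, 11.5 and 19.3 CPM in BHB libraries, against 0.801, 2.92 and 2.82 CPM in control libraries. The lowest BHB library stood 3.65-fold above the highest control library, so the groups did not overlap. Over all 12732 tested genes, 4.06% had every BHB library above every control library and 3.78% had every one below, which is a count over all genes and gives CHI3L2 no support of its own. Across all libraries, 85% of the counts of CHI3L2 came from the BHB group, with a sum of 294 counts (exact 95% Poisson interval 261.4 to 329.6), against 52 counts in the control group (38.84 to 68.19). These intervals, like all intervals here, cover counting error only.

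The mean level was 13.8 ± 4.75 CPM in BHB and 2.18 ± 1.19 CPM in control libraries (SD, n = 3 each), a 6.33-fold ratio of the means. The fitted log2 fold change of BHB over control was 2.65 with a standard error (SE) of 0.46. The authors' deposited table gives a log2 fold change of -2.74 with an SE of 0.46 in the direction control over BHB, and a mean normalised count of 59.3, from a model with the pairs. CHI3L2 belongs to a family of similar genes, and the counting of reads that map to several places is not stated in the labels. In bulk pools, more cells that carry a transcript and more transcript per cell cannot be told apart.

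**Figure D1:**
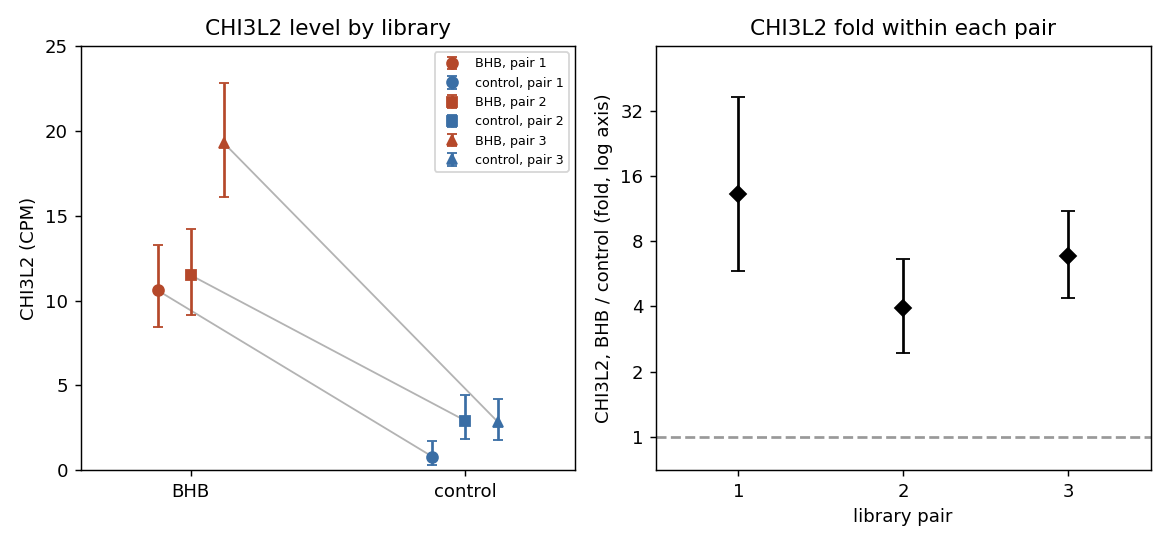
CHI3L2 in each library in CPM (left, linear axis; bars are exact 95% Poisson intervals of the count; grey lines join the libraries of a pair) and the BHB over control fold within each pair (right, log axis; bars are exact 95% intervals for counting error). The BHB libraries lie at 10.6 to 19.3 CPM, above the control libraries at 0.801 to 2.92 CPM, and the folds run from 3.94 to 13.3.

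Within pairs, CHI3L2 was higher with BHB in 3 of 3 pairs, and the size of the fold differed between them. In pair 1 it was at 10.6 CPM in the BHB library and 0.801 CPM in the control library, a 13.3-fold ratio (exact 95% interval for counting error 5.84 to 37.3). Pair 2 had 11.5 CPM in the BHB library and 2.92 CPM in the control library, which is 3.94-fold (2.44 to 6.62). Pair 3 had 19.3 CPM in the BHB library and 2.82 CPM in the control library, which is 6.83-fold (4.4 to 11). The interval of pair 1 overlapped those of both other pairs, and its width comes from the 6 counts of control library 1. On the log2 scale the pair folds averaged 2.83 with an SD of 0.88 (n = 3). Over the tested genes, 14.5% were higher with BHB in 3 of 3 pairs and 15.7% were lower.

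As differences rather than ratios, the BHB library exceeded its control by 9.84 CPM in pair 1, 8.58 CPM in pair 2 and 16.4 CPM in pair 3. The order of the pairs thus depends on the scale. Pair 1 had the largest ratio and pair 3 had the largest difference, while pair 2 was lowest on both.

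The libraries of each group also differed from each other. The coefficient of variation was 34.4% over the BHB libraries and 54.8% over the control libraries, where counting error at the mean count of each group gives 10.1% and 24.0%. Separate pools vary beyond counting error in general. In the BHB group, the interval of library 3 (16.1 to 22.8 CPM) lay above those of library 1 (8.42 to 13.3 CPM) and library 2 (9.15 to 14.2 CPM), which overlapped each other. In the control group, library 1 (0.294 to 1.74 CPM) lay below library 2 (1.83 to 4.42 CPM) and library 3 (1.81 to 4.19 CPM), which overlapped each other.

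The place of CHI3L2 within each library's own transcriptome moved in the same way. Of the 12826 genes, 4758 were lower than CHI3L2 in BHB library 1, 5098 in BHB library 2 and 6445 in BHB library 3. In control libraries 1, 2 and 3, 268, 2062 and 1630 genes were lower. CHI3L2 was therefore near the middle of the ranked genes in BHB library 3 and among the lowest genes of control library 1. These ranks use CPM, which is not scaled by transcript length, so they order read counts and not molecules.

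The fold change of CHI3L2 was the third largest positive one and ranked 4 of 12732 by absolute size. The rank, and the comparison by level that follows, restate the counts by which CHI3L2 was chosen and are no test. At its own level, 1576 other genes had a mean log2 CPM within 0.5 of that of CHI3L2, which was 2.45. Their median absolute log2 fold change was 0.24, their log2 fold changes ran from -1.53 to 2.07, and 15 of them had one of at least 1, which 0.958% of all tested genes had. The genes next to it in order of size differed in how evenly the libraries shared the change. LOC783362 (log2 fold change 3.11, SE 1.03) had 203, 15.1 and 13.4 CPM in BHB libraries, against 4.27, 5.44 and 16.8 CPM in control libraries. Its groups overlapped and a single BHB library carried the mean.

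For CAMK1D, which encodes a calcium-dependent kinase, the log2 fold change was 2.57 (SE 0.71). It was at 33.1, 3.18 and 40.3 CPM in BHB libraries, against 4.41, 3.45 and 4.93 CPM in control libraries, so BHB library 2 stood with the controls. DDAH1, which encodes an enzyme that degrades methylated arginine, had a log2 fold change of -3.39 (SE 0.87), with 0.943, 0.692 and 2.19 CPM in BHB libraries, against 30.9, 6.50 and 3.05 CPM in control libraries. FLRT2, a membrane adhesion gene, was the next below CHI3L2 on the lower side (-2.42, SE 0.57), with 0.269, 0.692 and 0.875 CPM in BHB libraries, against 1.87, 4.24 and 3.87 CPM in control libraries. The groups of DDAH1 and FLRT2 did not overlap, as in 7.84% of all tested genes. LOC783362, CAMK1D, DDAH1 and FLRT2 were chosen for the size of their change, and no test is given for them.

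**Figure D2:**
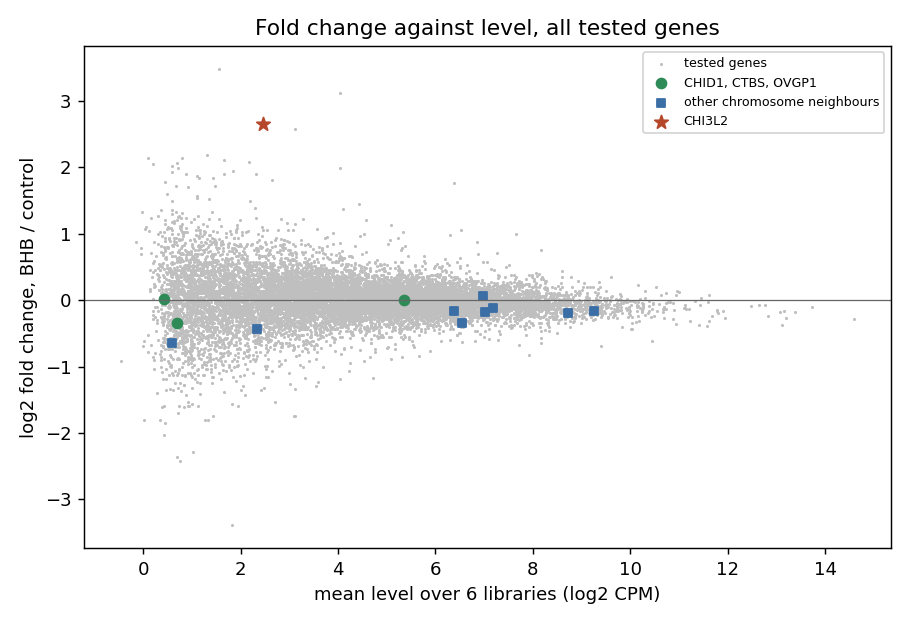
Log2 fold change (BHB over control) against mean level over the 6 libraries (log2 CPM) for the 12732 tested genes, with CHI3L2, its 3 tested family members and the other genes near it on the chromosome marked. CHI3L2 lies at 2.65 and a mean log2 CPM of 2.45, and the marked relatives and neighbours lie between -0.64 and 0.06.

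The tested members of the chitinase family other than CHI3L2 differed between BHB and control libraries by less than the spread between replicates. Of the 6 other genes in the family list (CHI3L1, CHIA, CHIT1, CHID1, CTBS and OVGP1), 3 were tested, and 0 passed edgeR's quasi-likelihood test in either direction (adjusted p = 0.999 for each). In that test, which leaves differences between pairs in its error, 0 of 12732 genes passed (0%). With libraries compared within pairs, edgeR's test also called 0 genes (0%). A count of 0 in this list or the lists below is therefore also the count over all genes and sets no list apart. Without pairs, 347 of all genes (2.73%) had an unadjusted p under 0.05 in edgeR's test, and DESeq2's Wald test called 6 genes (0.0471%). CHI3L2 was not called by edgeR and was among the 6, and neither outcome is a test of a gene chosen by these counts. CHI3L1, CHIA and CHIT1 are not analysed here. CHI3L1 is, like CHI3L2, a secreted protein without enzyme activity, and CHIA and CHIT1 are the active chitinases.

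CHID1, which encodes a chitinase-domain protein of lysosomes, was at 43.9, 38.1 and 40.1 CPM in BHB libraries, against 43.7, 33.9 and 44.1 CPM in control libraries. The groups overlapped, with means of 40.7 ± 2.96 CPM in BHB and 40.6 ± 5.76 CPM in control libraries (SD, n = 3 each), and its sign depends on the scaling. CTBS encodes di-N-acetylchitobiase, a lysosomal enzyme that trims the N-acetylglucosamine core of glycoproteins. It had 6, 11 and 12 counts in BHB libraries, against 2, 24 and 5 counts in control libraries (log2 fold change 0.02, SE 0.81). Like CHI3L2 it was lowest in control library 1, but control library 2 was its highest library. OVGP1, the oviduct-specific glycoprotein, a chitinase-like protein that the oviduct secretes around the egg and early embryo, had 9, 19 and 2 counts in BHB libraries, against 13, 9 and 20 counts in control libraries (-0.35, SE 0.67). The signs of CTBS, OVGP1 and CHID1 turned in some fits without 1 library or 1 pair. Without BHB library 3 the log2 fold change of OVGP1 was 0.12, and the log2 fold change of CTBS ran from -0.45 without control library 1 to 1.61 without control library 2.

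Genes near CHI3L2 on its chromosome were examined next. In the RefSeq gene table of the ARS-UCD2.0 assembly, used here for gene order alone, CHI3L2 lies between LOC101903127 and DENND2D, and CHIA is the second gene on the side of LOC101903127. OVGP1 is the eighth gene on that side and the nearest tested one, and the genes between it and CHI3L2 are not analysed here. Of the 5 nearest tested genes on each side, 0 of 10 passed edgeR's test in either direction (adjusted p = 0.999 for each), as for 0% of all tested genes. Among the 10, 9 log2 fold changes were negative, and their median was -0.19 against 0 over all tested genes. In none of the 10 did the groups stand apart, which they did in 7.84% of all tested genes.

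DENND2D, which encodes an activator of RAB GTPases, is the adjacent gene. It was at 90.0, 81.6 and 79.8 CPM in BHB libraries, against 128, 104 and 85.5 CPM in control libraries (log2 fold change -0.34, SE 0.17). The groups overlapped. DENND2D was lower with BHB in 3 of 3 pairs, opposite to CHI3L2, as were 15.7% of all tested genes. CEPT1, an enzyme of phospholipid synthesis, averaged 140.0 ± 3.54 CPM in BHB and 152 ± 12 CPM in control libraries (SD, n = 3 each). DRAM2, a lysosomal membrane gene, averaged 122 ± 13.9 CPM in BHB and 139 ± 14.5 CPM in control libraries (SD, n = 3 each). LRIF1, which encodes a chromatin protein found on the inactive X chromosome, averaged 79.4 ± 5.59 CPM in BHB and 89.3 ± 12.5 CPM in control libraries (SD, n = 3 each).

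CD53, a tetraspanin of leukocytes at the far end of the same side, had 4, 11 and 7 counts in BHB libraries, against 13, 8 and 17 counts in control libraries. On the other side, WDR77, a partner of an arginine methyltransferase, averaged 129 ± 12.8 CPM in BHB and 124 ± 7.94 CPM in control libraries (SD, n = 3 each). Its log2 fold change of 0.06 (SE 0.13) was the 1 positive value among the neighbours and turned to -0.02 without BHB library 2. ATP5PB, a subunit of the mitochondrial ATP synthase, was at a log2 fold change of -0.16 (SE 0.13), LOC101903375 at -0.43 (SE 0.32), and the small GTPase gene RAP1A at -0.20 (SE 0.18).

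Receptors and partners have been described for chitinase-like proteins, mostly for CHI3L1 in humans and mice. Of 12 listed genes 8 were tested, 0 passed edgeR's test in either direction (0% of all tested genes), and 6 of 8 log2 fold changes were negative (median -0.27, against 0 over all tested genes). The 2 with the smallest p were integrin beta chains with opposite signs. ITGB3 was at 18.3, 25.5 and 29.9 CPM in BHB libraries, against 17.4, 11.3 and 17.5 CPM in control libraries (log2 fold change 0.67, SE 0.26). ITGB5 was at 6.60, 7.62 and 6.71 CPM in BHB libraries, against 14.6, 8.62 and 10.7 CPM in control libraries (-0.69, SE 0.28). The groups did not overlap in either gene, as in 7.84% of all tested genes, and both had adjusted p = 0.999 in edgeR's test. TMEM219, which with IL13RA2 forms a receptor for CHI3L1, averaged 21.9 ± 2.13 CPM in BHB and 21 ± 1.80 CPM in control libraries (SD, n = 3 each), and IL13RA2 is not analysed here.

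In human macrophages CHI3L2 is induced by interleukin-4 together with TGF-beta, and genes of the response to interleukin-4 and the related interleukin-13 were therefore listed. Of 22 listed genes 13 were tested, 0 passed edgeR's test without pairing in either direction (0% of all tested genes), and 9 of 13 log2 fold changes were positive (median 0.12). MMP12, the macrophage metalloelastase, a secreted protease that cleaves elastin, was at 150.0, 155 and 169 CPM in BHB libraries, against 73.2, 74.0 and 111 CPM in control libraries (log2 fold change 0.88, SE 0.18). It was higher in 3 of 3 pairs, as were 14.5% of all tested genes. Its groups did not overlap, as in 7.84% of all tested genes. MMP12 had adjusted p = 0.999 in edgeR's test and passed DESeq2's Wald test without pairing (adjusted p = 0.0403). It rose in DESeq2's Wald test with the replicate block, which compares libraries within pairs (log2 fold change 0.90, adjusted p = 2.7e-05). It did not pass edgeR's test with the same block (adjusted p = 0.0761). DESeq2's test with the block called 35 of 12732 genes (0.275%), and MMP12 was the 1 call among the 13. The list was chosen with earlier results of these data known, so this call is not independent of those results.

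CCL17, a chemokine that attracts T cells, was at 76.9, 120.0 and 232 CPM in BHB libraries, against 104, 47.9 and 56.5 CPM in control libraries. It was lower with BHB in pair 1 and higher in pairs 2 and 3, so its pattern differs from that of CHI3L2 in pair 1. With all pairs it did not pass edgeR's test with the replicate block (log2 fold change 1.00, adjusted p = 0.534). It passed without pair 1, the pair with the opposite sign (1.69, adjusted p = 0.0182), but not without pair 2 (0.81, adjusted p = 0.857) or pair 3 (0.45, adjusted p = 0.708). Leaving out the pair of opposite sign leaves only pairs of the same sign, so that pass is no support for a change. Without the block the log2 fold change of CCL17 was 1.05 (SE 0.40, adjusted p = 0.999 in edgeR's test), and 0.51 without BHB library 3. The other chemokines of the list, CCL24 and CCL26, had negative log2 fold changes of -0.84 (SE 0.42) and -0.51 (SE 0.34), and CCL22 had 0.12 (SE 0.64). The receptor chain IL13RA1 averaged 92.6 ± 16 CPM in BHB and 84.7 ± 24.9 CPM in control libraries (SD, n = 3 each). IL2RG, another receptor chain of the list, averaged 4.95 ± 1.79 CPM in BHB and 2.38 ± 1.60 CPM in control libraries (SD, n = 3 each). Its log2 fold change was 1.04 (SE 0.51, adjusted p = 0.999 in edgeR's test). The groups of IL2RG overlapped, and it was higher with BHB in 3 of 3 pairs, as were 14.5% of all tested genes. IL4R and STAT6, the receptor and the transcription factor at the head of this response, are not analysed here.

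**Figure D3:**
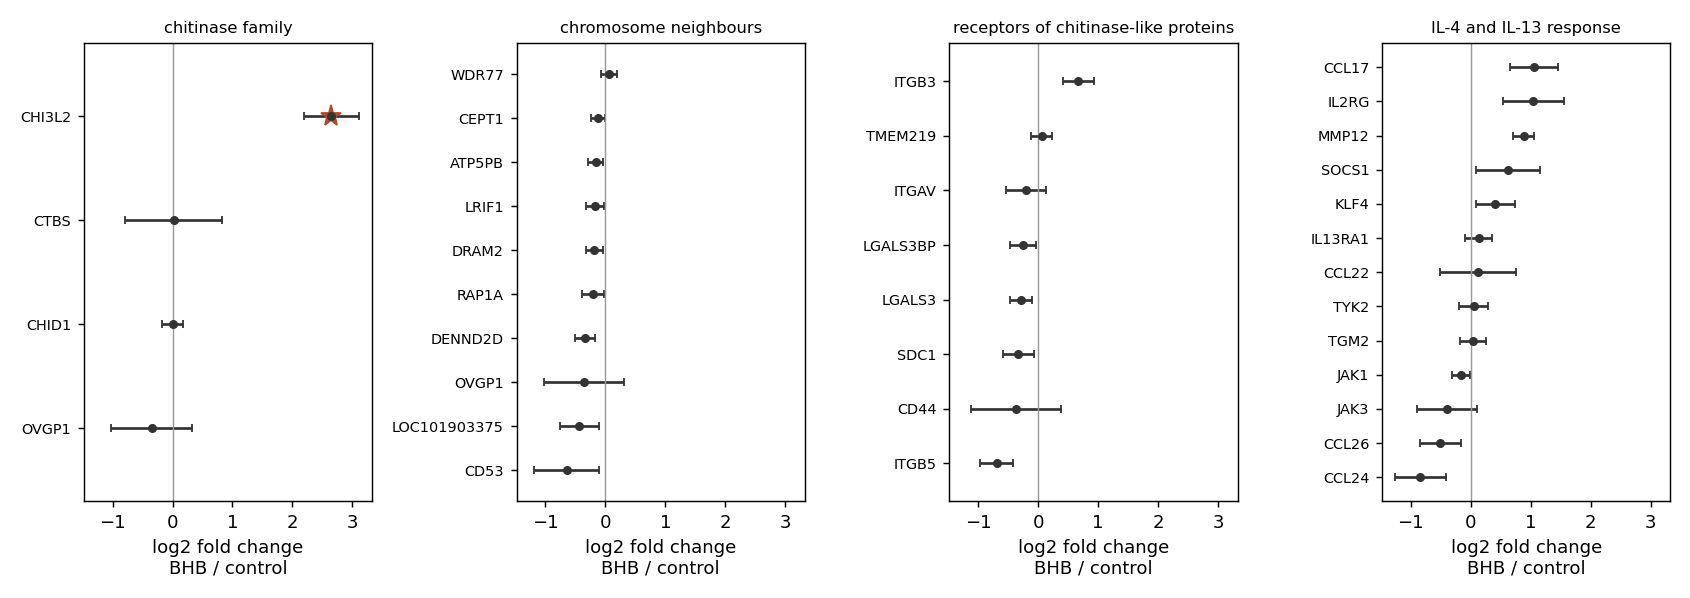
Log2 fold change of BHB over control (points, with SE bars) for the tested members of the chitinase family, the chromosome neighbours, the receptors and partners of chitinase-like proteins and the interleukin response. CHI3L2 (star) is at 2.65, and the other genes shown lie between -0.84 and 1.05.

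A further list held genes that make, carry or remove N-acetylglucosamine, the sugar unit of chitin and of many glycoproteins. Of 22 listed genes 20 were tested, 0 passed edgeR's test in either direction (0% of all tested genes), and 13 of 20 log2 fold changes were negative (median -0.17). OGA, which removes the sugar from intracellular proteins, averaged 167 ± 8.33 CPM in BHB and 208 ± 28.1 CPM in control libraries (SD, n = 3 each), with a log2 fold change of -0.32 (SE 0.14). DPAGT1, which starts the sugar chain of N-linked glycoproteins, averaged 51.7 ± 4.70 CPM in BHB and 63.9 ± 7.70 CPM in control libraries (SD, n = 3 each). OGT, which adds the sugar that OGA removes, averaged 160.0 ± 12.5 CPM in BHB and 155 ± 19.5 CPM in control libraries (SD, n = 3 each).

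Hyaluronan and proteoglycan genes were split in sign, with 7 positive and 8 negative of 15 tested among 23 listed (median -0.02) and 0 past the test. Among them the log2 fold change was 0.70 (SE 0.54) for GPC6, a glypican, and -0.65 (SE 0.61) for VCAN, the matrix proteoglycan versican. Both were at low levels, with 6 to 19 counts in BHB and 8 to 12 counts in control libraries for GPC6.

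Because CHI3L2 is known from macrophages and cartilage, markers of other cell types were set beside it. Of 12 macrophage and leukocyte markers 1 was tested, CD68, and the others, among them PTPRC, CD14 and CSF1R, are not analysed here. CD68 had 18, 20 and 18 counts in BHB libraries, against 17, 10 and 18 counts in control libraries, which is 2.42 to 2.77 CPM in BHB and 1.33 to 2.27 CPM in control libraries. Its groups did not overlap on the CPM scale, as in 7.84% of all tested genes (log2 fold change 0.45, SE 0.41, adjusted p = 0.999 in edgeR's test). Of 9 cartilage and synovium markers 1 was tested, MATN3, a cartilage matrix gene, with 1.31 to 2.69 CPM in BHB and 0.939 to 1.60 CPM in control libraries. COL2A1 and ACAN, the defining collagen and proteoglycan of cartilage, are not analysed here.

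Of 10 markers of cumulus and granulosa cells, which surround the oocyte, 3 were tested, and their summed level was 28.2 to 35.3 CPM in BHB and 29.6 to 37.5 CPM in control libraries. The 3 were FSHR, the receptor of follicle-stimulating hormone (-0.28, SE 0.23), CYP19A1, the aromatase (0.31, SE 0.27), and STAR, a cholesterol transporter (-0.26, SE 0.33). The other markers, among them PTX3, FOXL2 and AMH, are not analysed here, so the sum covers only part of the list. The part of any of these cell types in the level of CHI3L2 was not tested.

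Of the embryo lineage markers, 0 of 7 for trophectoderm, 0 of 4 for inner cell mass and epiblast and 0 of 5 for primitive endoderm passed edgeR's test, as for 0% of all tested genes. Their summed levels overlapped between the groups, at 8300 to 13500 CPM in BHB and 10500 to 17100 CPM in control libraries for trophectoderm. Within pairs, KRT8 and KRT18, the keratins that make up most of that sum, were both lower with BHB in 3 of 3 pairs, as were 15.7% of all tested genes (adjusted p = 0.0637 for KRT8 and 0.0979 for KRT18 in DESeq2's Wald test with the replicate block). The sums were 548 to 618 CPM in BHB and 573 to 631 CPM in control libraries for inner cell mass and epiblast, and 195 to 263 CPM in BHB and 173 to 254 CPM in control libraries for primitive endoderm. NANOG, a transcription factor of the epiblast, was at 30.7, 33.4 and 51.2 CPM in BHB libraries, against 72.4, 60.7 and 73.4 CPM in control libraries. It fell within pairs in DESeq2's Wald test with the replicate block (-0.87, adjusted p = 0.00892). NANOG did not pass edgeR's test with the block (adjusted p = 0.183) or without it (adjusted p = 0.999). Nor did it pass DESeq2's Wald test without the block (adjusted p = 0.365). The marker lists were chosen with earlier results of these data known, so the call of NANOG is not independent of those results. KLF17, another epiblast factor, was at 34.2, 24.2 and 33.0 CPM in BHB libraries, against 15.4, 17.9 and 22.3 CPM in control libraries (0.72, SE 0.22).

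TFAP2C, which specifies trophectoderm, was at 269, 268 and 297 CPM in BHB libraries, against 195, 172 and 277 CPM in control libraries. GATA4 of the primitive endoderm had 8, 13 and 6 counts in BHB libraries, against 18, 15 and 27 counts in control libraries. COL4A1, a basement membrane collagen of the same lineage, averaged 27.6 ± 3.22 CPM in BHB and 24.7 ± 2.54 CPM in control libraries (SD, n = 3 each).

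Over the 6 libraries, the genes with the profile most like that of CHI3L2 were LOC785540, LOC100140788, ARHGAP9, CXHXorf67, LOC112447040 and LOC512869. Likeness was measured as the root mean square difference between log2 CPM profiles after each gene's own mean was taken off, so a value of 0 would be an identical profile. It was 0.49, 0.53, 0.56, 0.68, 0.71 and 0.72 in that order, against a median of 1.46 over 12726 genes. A gene that did not vary over the libraries would be at 1.44, so the median is near that of a flat profile. In all, 90 genes were below 1, and all genes of a library share its depth and pool. The 6 genes were found by likeness to a gene that differs between the groups. A difference between the groups is therefore built into them and no test is given.

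LOC785540 had 34, 42 and 91 counts in BHB libraries, against 2, 20 and 27 counts in control libraries. Like CHI3L2 it was highest in BHB library 3 and lowest in control library 1. ARHGAP9, a gene known from blood cells, followed the same order at a very low level, with 10, 14 and 23 counts in BHB libraries, against 1, 6 and 8 counts in control libraries. LOC100140788 differed in that BHB library 1 was its highest, with 46.6, 24.2 and 31.2 CPM in BHB libraries, against 4.01, 9.68 and 12 CPM in control libraries.

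LOC512869 had the most even values of the 6, with 33.3, 34.3 and 38.1 CPM in BHB libraries, against 9.88, 12.7 and 16 CPM in control libraries. LOC112447040 had 15, 14 and 15 counts in BHB libraries, against 2, 4 and 10 counts in control libraries. CXHXorf67 was the 1 gene of the 6 whose groups overlapped, with 4.18, 2.22 and 7.00 CPM in BHB libraries, against 0.267, 0.663 and 2.70 CPM in control libraries. The list depends on which libraries enter it. Without control library 1 the 6 nearest genes shared 2 members with it, without BHB library 1 they shared 3, and without any other single library they shared 4.

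Once the mean of each group was taken off, so that only the spread among libraries of the same treatment counted, the nearest profiles were those of DCX, LOC112445060 and C20H5orf49 (root mean square differences 0.08, 0.10 and 0.11, against a median of 0.63). A profile flat within groups would be at 0.58. DCX, which encodes the microtubule protein doublecortin, had 13, 12 and 22 counts in BHB libraries, against 4, 15 and 15 counts in control libraries. C20H5orf49 had 18, 20 and 38 counts in BHB libraries, against 8, 24 and 26 counts in control libraries, and LOC112445060, a long noncoding RNA, had 8, 10 and 18 counts in BHB libraries, against 2, 11 and 10 counts in control libraries. All 3 genes had a high BHB library 3 and a low control library 1, as CHI3L2 did, which follows from how they were chosen. Their groups overlapped, with log2 fold changes of 0.55 to 0.79.

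**Figure D4:**
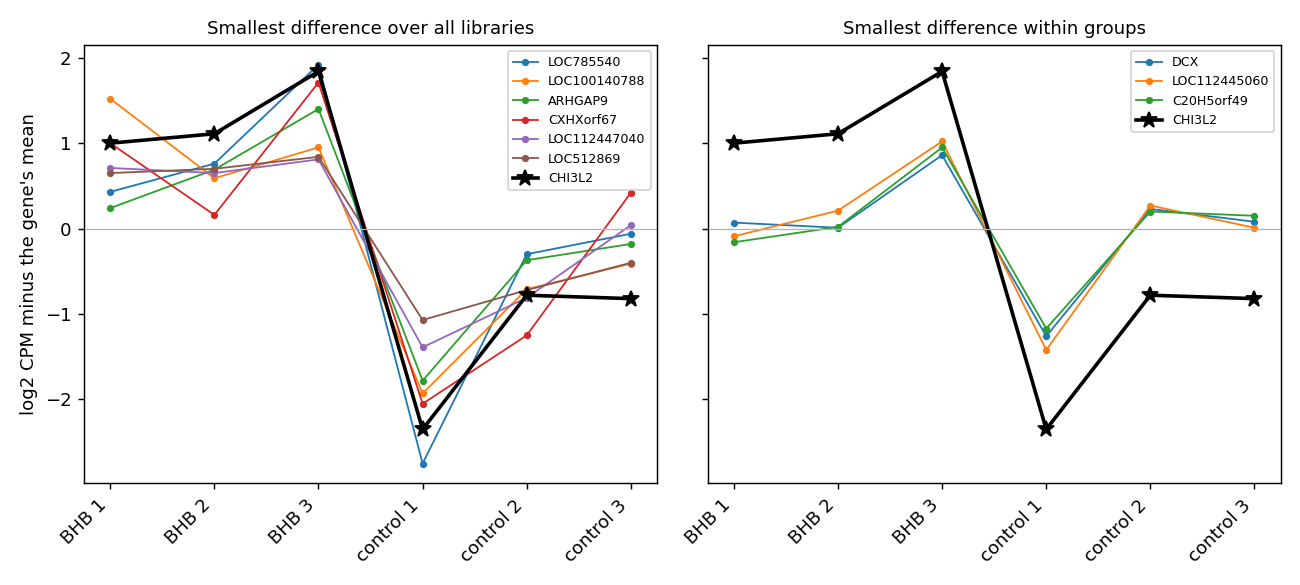
Log2 CPM minus each gene's own mean in the BHB libraries (left of each panel) and the control libraries for CHI3L2 (black) with the 6 genes nearest to it over all libraries (left panel) and the 3 nearest after group means are taken off (right panel); lines join the values of a gene and imply no order of libraries. CHI3L2 runs from 1.84 in BHB library 3 to -2.35 in control library 1, and the genes of the right panel, chosen for their likeness within groups, have the same extremes with a smaller offset between the groups.

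The sign of the CHI3L2 difference was fixed by the choice of a gene whose groups do not overlap. The 17 other fits reuse the counts by which it was chosen. They show how its size moves with the fit and do not test that size. The log2 fold change ran from 2.26 (SE 0.39) without control library 1 to 3.12 (SE 0.41) with the replicate block and without pair 2. The library with 6 counts therefore moved the value most among single libraries, from 2.65 with all libraries, and BHB library 3, the highest, moved it to 2.33 (SE 0.50). With the replicate block and all pairs the value was 2.70 (SE 0.34).

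**Figure D5:**
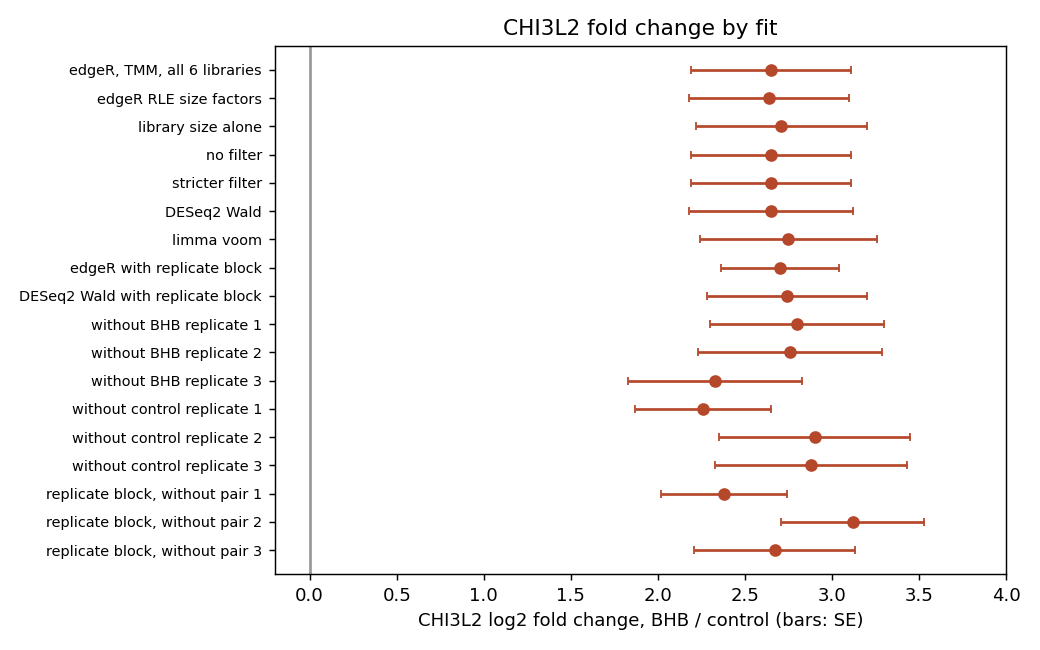
Log2 fold change of CHI3L2, BHB over control, with its SE in the fit with all 6 libraries and in 17 alternatives (other scalings, filters, tools, the pair as replicate block, and fits without 1 library or 1 pair). All values lie between 2.26 and 3.12.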

How the data were processed

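The authors deposited whole-number counts per gene for 6 libraries. The authors' deposited table of their comparison holds a mean count (a linear signal), a log2 fold change with its error, a test statistic (a score) and p-values. The submitters' processing notes name STAR, featureCounts and DESeq2. Not given in the sources used here are versions, genome build, annotation, strand setting and the handling of multi-mapping reads. The smallest gene total was 38 counts, so lower genes are not analysed here. Groups follow the treatment label, and replicate numbers follow the order of deposit.

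Counts were scaled by TMM and filtered with filterByExpr, which kept 12732 of 12826 genes and removed 94. The comparison of BHB against control used the quasi-likelihood test of edgeR 4.0.16 in R 4.3.3, without covariates. P-values were adjusted by the Benjamini-Hochberg method over all tested genes, with a threshold of 0.05. SEs come from the fold change and the F statistic. DESeq2 1.42.0 and limma 3.58.1 (voom) were alternatives. The edgeR, DESeq2 and voom fits were also run on simulated counts, with a common dispersion for all genes and no differences between pairs. That run cannot show how the fits behave on data with pairs, and its outcome is not given here. Profiles used log2 CPM with a prior count of 2 and genes with a mean of at least 0. DESeq2's likelihood ratio test of pair and treatment against neither matched the authors' p-value to within 1e-06 in nearly all genes for the pairs used here and in at most 0.398% for 5 other pairings. Deviations from group means correlated at 0.46, 0.32 and 0.33 within pairs, over genes. Of the gene names, 12153 are RefSeq (ARS-UCD2.0) symbols, 215 are older symbols and 458 were not matched.

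The gene and the 12 lists were chosen with earlier results of these data known. Named genes are the chitinase family, the 5 nearest tested genes on each side of CHI3L2, the 2 members of each other list with the smallest p, the 6 and 3 genes of most like profile, and the 2 genes next above and below in absolute fold change. Other list members were named after their values were seen.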

Additional observations from a re-analysis of the deposited data

How the results depend on the processing

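The log2 fold change of CHI3L2 was 2.26 to 3.12 in fits without 1 library or 1 pair, and its sign was fixed by how the gene was chosen. The count of genes past the threshold was 0 with edgeR, 6 with DESeq2's Wald test, 35 with DESeq2 and the replicate block, and 0 to 16 in edgeR fits without 1 library or 1 pair. It was 0 under the other scalings, other filters, limma-voom and edgeR with the replicate block. CHI3L2 was among the 6, the 35 and the 16, which is no test of it because it was chosen by its counts. Among the 89 tested list members the count was 0 with edgeR, 1 with DESeq2 (MMP12), 2 with DESeq2 and the replicate block (MMP12 and NANOG), and 0 to 1 without 1 library or 1 pair. The 6 most like genes shared 5 members with the list under a prior count of 0.5 and 2 to 4 without 1 library. Signs turned in 4 named genes, none of them past the threshold. CHID1 was at 0 with RLE size factors and with DESeq2, with the sign turned. Without 1 library CHID1 ran from -0.11 to 0.07, CTBS from -0.45 to 1.61, OVGP1 from -1.2 to 0.12 and WDR77 from -0.02 to 0.12. With the replicate block, CHID1 was at -0.06 without pair 2, and without pair 3 CTBS was at -0.24 and OVGP1 at 0.35. The causes were not tested. Fits without 1 library keep its partner and so mix pair with treatment. Depth limits the control level of CHI3L2, which rests on 52 counts.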
